A study of Mus musculus with 56 samples.

Results

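The mitochondrial ribosomal protein genes encode the protein parts of the ribosome that works inside mitochondria. They were taken as all genes of the expression table whose Entrez ID carries a symbol beginning with Mrpl or Mrps and a digit, without pseudogenes. Of 24424 genes in the table, 78 met the rule, 49 named Mrpl after the large subunit and 29 named Mrps after the small one. All 78 had a mean of at least 4 on the log2 scale and were tested.

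RNA-seq was done on 2 progenitor populations from mouse bone marrow, all of strain C57BL/6. The mutant mice, called T2F3, had the genotype Tet2-/-Flt3ITD, and the labels of the others read WT. Tet2 encodes an enzyme that oxidizes 5-methylcytosine, and ITD stands for a tandem repeat inside Flt3, the gene of a growth factor receptor. Granulocyte-macrophage progenitors (GMP) were sorted as lin- Sca- cKit+ CD34+ CD16/32+ cells and multipotent progenitors (MPP) as lin- Sca+ cKit+ CD48+ CD150- cells. There were 3 T2F3 GMP, 5 WT GMP, 3 T2F3 MPP and 4 WT MPP libraries, and the WT MPP libraries carry the numbers 1, 3, 4 and 5. Both alleles are given only as part of the genotype, no ages are stated, and for the treatment of the animals the labels point to a methods text not used here.

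The mitochondrial ribosome translates the few messages of the mitochondrial genome, all of which encode core subunits of the respiratory chain and ATP synthase. Its RNAs are made inside the organelle, while all of its proteins are encoded in the nucleus, made in the cytosol and imported. Some of these proteins descend from bacterial ribosomal proteins, and others were added in mitochondria. Blood stem cells are known for a low rate of protein synthesis and a low use of mitochondrial respiration, and both increase as progenitors differentiate.

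Across the 4 groups, the WT MPP libraries read low for nearly the whole family, and T2F3 MPP read close to the GMP of both genotypes. WT MPP had the lowest of the 4 group means in 72 of 78 members, against 31.3% of all 12133 genes tested. The exceptions were Mrpl37, Mrpl38, Mrpl52, Mrps2, Mrps5 and Mrps6. T2F3 MPP was lowest in 2 of these (27.8% of all genes), Mrpl37 and Mrps5. WT GMP had the highest group mean in 39 members (27.3% of all genes), T2F3 GMP in 27 (18.7%), T2F3 MPP in 12 (24.1%) and WT MPP in 0 (29.9%).

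For each library the median deviation of the 78 members from their own means over the 15 libraries was taken as a family level on the log2 scale. The family level was 0.10, 0.41 and -0.13 in T2F3 GMP and 0.67, 0.20, -0.09, -0.06 and -0.00059 in WT GMP, in the order of the libraries. It was 0.03, 0.10 and 0.13 in T2F3 MPP, against -0.32, -0.42, -0.32 and -0.30 in WT MPP. The 4 WT MPP libraries therefore lay together below every other library, and the T2F3 MPP libraries lay within the range of the GMP libraries. T2F3 GMP and WT GMP overlapped widely.

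**Figure D1:**
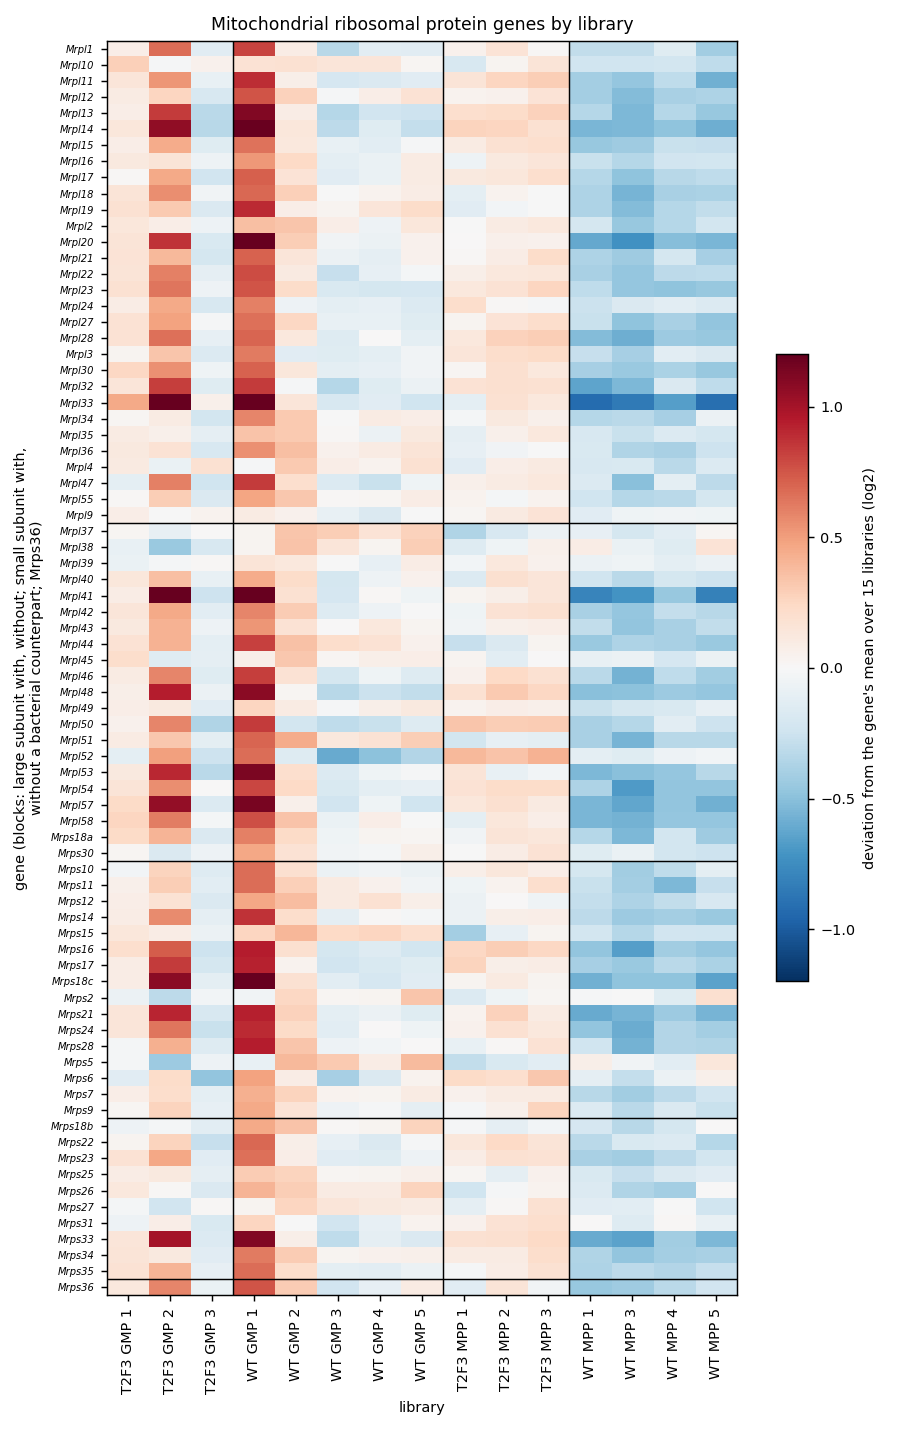
Deviation of each of the 78 mitochondrial ribosomal protein genes (rows) from its own mean over 15 libraries (columns), in log2 units, with red for higher and blue for lower. Rows are grouped by subunit and by whether the protein has a bacterial counterpart. The WT MPP columns are blue in nearly every row, and WT GMP 1 and T2F3 GMP 2 are the reddest columns.

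Single GMP libraries stood apart. WT GMP 1 lay 0.68 above the mean of the other WT GMP libraries as a median over the 78 members and was the highest of its group in 69 of them. T2F3 GMP 2 lay 0.40 above the others of its group and was the highest in 62 members, and T2F3 GMP 3 lay 0.41 below and was the lowest in 67. The cytosolic ribosomal protein genes deviated in the same libraries by 1.06 in WT GMP 1, 0.79 in T2F3 GMP 2 and -0.61 in T2F3 GMP 3. The respiratory chain and ATP synthase genes deviated by 0.87 in WT GMP 1, 0.61 in T2F3 GMP 2 and -0.52 in T2F3 GMP 3. Within MPP the spread was small, with an SD of the family level of 0.05 in T2F3 MPP (n = 3) and 0.06 in WT MPP (n = 4), against 0.27 in T2F3 GMP (n = 3) and 0.32 in WT GMP (n = 5). The counts of members called are given with and without WT GMP 1 and T2F3 GMP 2. Both read high in these same genes, while T2F3 GMP 3, which read low, was kept. The counts and adjusted p-values without them depend on that choice, which can narrow the spread that all groups share. They are a description.

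**Figure D2:**
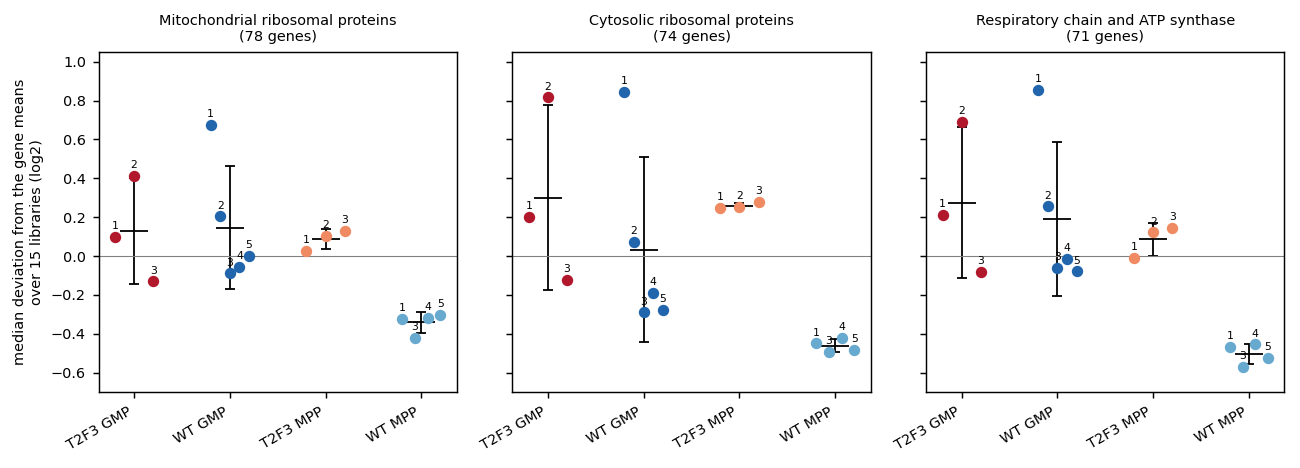
Median deviation of 3 gene families from their means over 15 libraries (log2, y axis) in each library (points, numbered by library), by group (x axis), with the group mean and SD as bars. The 4 WT MPP libraries lie lowest in all 3 families, and WT GMP 1 and T2F3 GMP 2 lie highest.

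Within groups, libraries correlated across genes at 0.973 to 0.995. The values hold no counts, so depth is unknown. The labels do not say that each library is a separate animal, and the p-values then measure only how far these libraries vary, which may be technical. Tet2 averaged 10.12 in T2F3 GMP and 10.06 in WT GMP, and 9.75 in T2F3 MPP and 9.79 in WT MPP (log2 levels). A level read over the whole gene says nothing of a partly deleted allele. The genes of the sorting markers were read, with Fcgr3, which encodes CD16, at 10.74 in T2F3 GMP and 11.01 in WT GMP and at 8.86 in T2F3 MPP and 8.89 in WT MPP (log2 group means). Slamf1, which encodes CD150, was near 2 to 3 on the log2 scale in all groups. Other sorting genes differed between the genotypes within MPP. Cd48 averaged 11.48 in T2F3 MPP and 9.95 in WT MPP, Kit 11.38 in T2F3 MPP and 12.30 in WT MPP, Ly6a, which encodes Sca-1, 8.32 in T2F3 MPP and 7.70 in WT MPP, and Fcgr2b 9.60 in T2F3 MPP and 8.82 in WT MPP. Of the 6 tested sorting genes, 3 were higher and 1 was lower in T2F3 MPP, and their part in the results was not tested. In bulk RNA, fewer cells of a type and less RNA per cell cannot be told apart.

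The genotype comparison in MPP asked how these genes differed between the T2F3 and WT libraries of multipotent progenitors. Of the 78 members, 32 were higher in T2F3 MPP and 0 were lower by limma at an adjusted p under 0.05. Among all genes tested, 20.7% were higher and 19.6% were lower by the same rule, against 41% of members called higher and none called lower. At an unadjusted limma p under 0.05, 53 members were higher and 0 were lower. The median difference was 0.41 on the log2 scale with quartiles of 0.26 and 0.55, against a median of -0.02 over all genes tested, and 74 of 78 members were above 0, as were 48.5% of all genes. In 69 members every T2F3 MPP library lay above every WT MPP library, where 28.1% of all genes tested did, and only Mrps5 lay wholly below (26% of all genes).

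Each difference was modest. The called differences ran from 0.25 (Mrpl10) to 0.77 (Mrps16), or up to 1.70-fold, and no member of the family reached 2-fold. The number called changed with single libraries, while the median difference stayed between 0.38 and 0.45 whichever library was left out. The median was lower under other settings, at 0.31 with the replicate number as a block, 0.36 with centring and 0.37 with quantile normalization. The number called was 5 without T2F3 MPP 3, 6 without T2F3 MPP 2, 16 without WT MPP 1 and 12 without WT MPP 3. It was 19 without WT MPP 4, 20 without WT MPP 5, 58 without WT GMP 1 and 65 without both WT GMP 1 and T2F3 GMP 2. These last libraries enter the MPP comparison only through the estimate of the spread that all groups share.

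**Figure D3:**
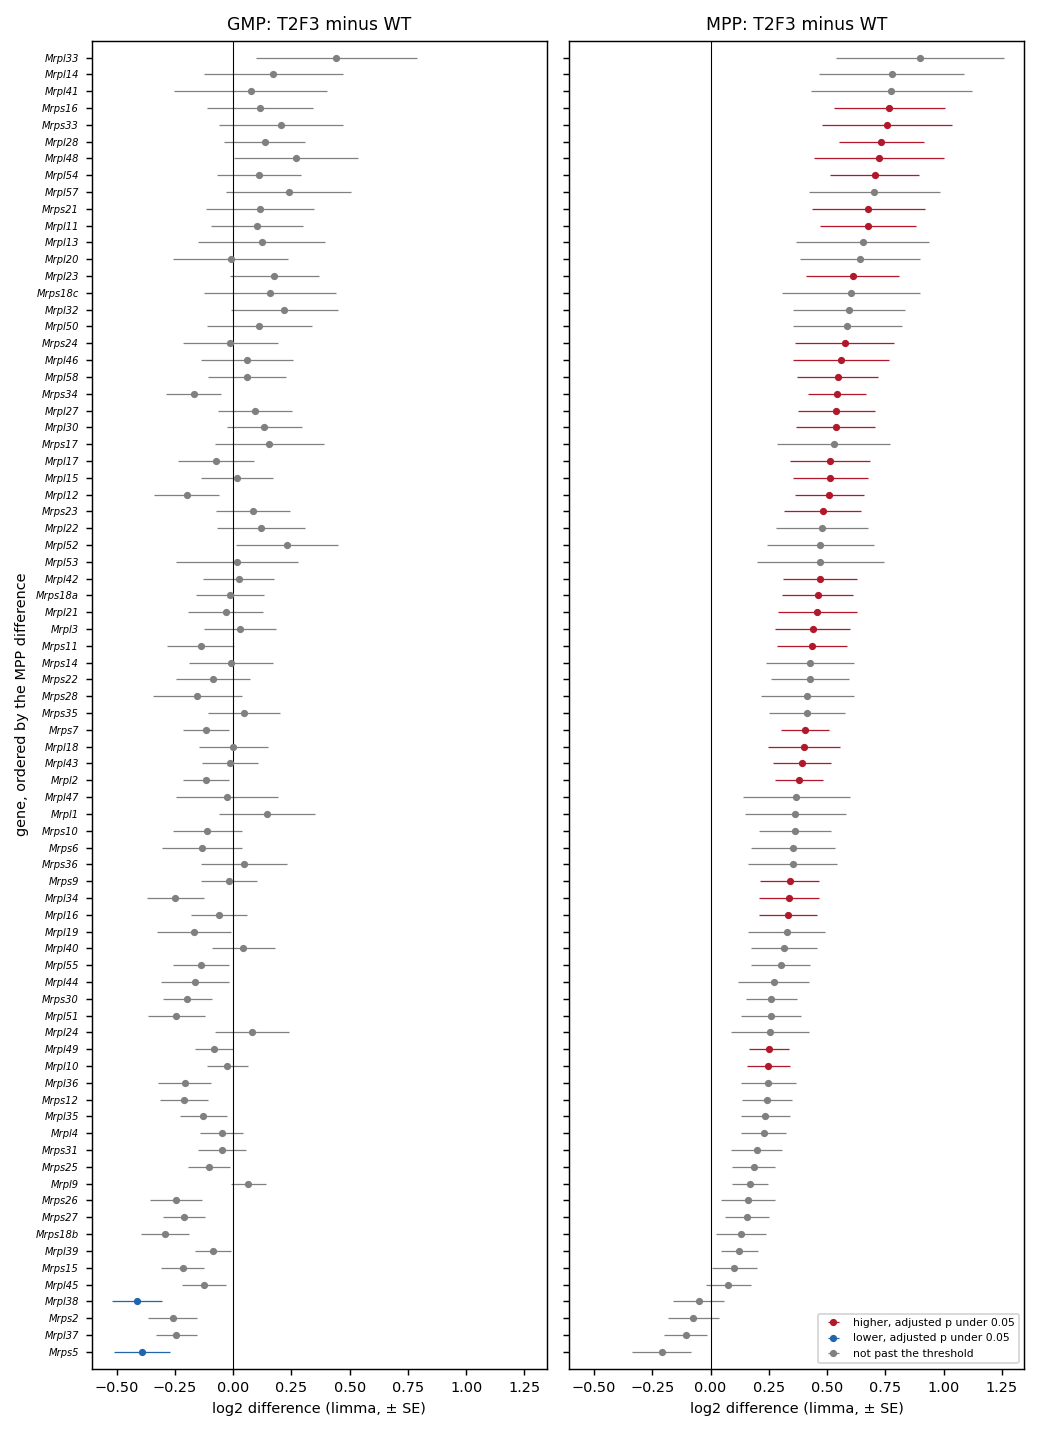
Log2 difference T2F3 minus WT of each of the 78 members (rows, ordered by the MPP value) in GMP (left) and MPP (right), with limma's SE as bars, and genes past an adjusted p of 0.05 in colour. In MPP 74 points lie right of 0 and 32 are called higher, and in GMP the points scatter on both sides of 0 with 2 called lower.

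Among proteins of the large subunit with a bacterial counterpart, 15 of 30 were higher in T2F3 MPP, with a median difference of 0.45. The smallest p belonged to Mrpl28, the counterpart of bacterial L28. Mrpl28 read 9.61, 9.75 and 9.78 in T2F3 MPP, against 8.96, 8.89, 9.04 and 9.03 in WT MPP (log2 levels). The lowest T2F3 MPP library lay above the highest WT MPP library by more than the range within either group. The difference was 0.73 ± 0.18 (SE), or 1.66-fold, with a limma adjusted p of 0.0057. Mrpl24, whose bacterial counterpart starts the assembly of the large subunit, had the largest p of the list, at a difference of 0.25 ± 0.17 (adjusted p = 0.227). It read 8.98 to 9.20 in T2F3 MPP, against 8.73 to 8.86 in WT MPP, so its groups did not overlap. Without both WT GMP 1 and T2F3 GMP 2, left out for reading high, the limma adjusted p of Mrpl24 was 0.0133, which is a description.

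Among large subunit proteins added in mitochondria, 8 of 21 were higher in T2F3 MPP, with a median difference of 0.46. Mrpl54, one of these additions, read 8.68, 8.73 and 8.73 in T2F3 MPP, against 8.14, 7.83, 8.04 and 8.04 in WT MPP. The T2F3 MPP libraries were nearly level and all lay above WT MPP. The difference was 0.70 ± 0.19 (SE), or 1.63-fold, with a limma adjusted p of 0.00956. Mrpl38, which sits in the central protuberance of the subunit, had the largest p of that list, at -0.05 ± 0.11 (adjusted p = 0.725). It read 8.20, 8.31 and 8.42 in T2F3 MPP and 8.45, 8.28, 8.21 and 8.52 in WT MPP, which overlapped, and its difference was at 0.0016 without T2F3 MPP 1 and 0.00029 without WT MPP 5.

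In the small subunit, 6 of 16 proteins with a bacterial counterpart and 3 of 10 mitochondrial additions were higher in T2F3 MPP, with median differences of 0.41 and 0.31. Mrps7, the counterpart of S7 in the head of the subunit, read 9.19, 9.24 and 9.23 in T2F3 MPP, against 8.80, 8.73, 8.83 and 8.91 in WT MPP. The groups did not overlap, and the difference was 0.40 ± 0.10 (SE), or 1.32-fold, with a limma adjusted p of 0.00679. Its gene overlaps Gga3 and Mif4gd on the genome, and whether the counting used strand is not given in the sources used here, so reads of these genes may not be separated. Mrps34, an addition of mitochondria that binds the small subunit RNA, had the smallest p of the whole family. Mrps34 read 8.71, 8.71 and 8.82 in T2F3 MPP, against 8.24, 8.13, 8.20 and 8.22 in WT MPP. The gap between the groups was several times the spread within either, and the difference was 0.54 ± 0.12 (SE), or 1.46-fold, with a limma adjusted p of 0.00354. Mrps36, which is now known as a subunit of the alpha-ketoglutarate dehydrogenase complex and belongs to neither list, was at 0.35 ± 0.19 (adjusted p = 0.147).

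Mrps2, the counterpart of S2, and Mrps5, the counterpart of S5 at the channel where messages enter, did not share the direction. Mrps2 had the largest p of its list, at -0.07 ± 0.11 (adjusted p = 0.6), with 8.76, 8.87 and 8.95 in T2F3 MPP and 8.91, 8.92, 8.79 and 9.13 in WT MPP. Its gene overlaps 1700007K13Rik. Mrps5 read 8.21, 8.33 and 8.38 in T2F3 MPP, against 8.58, 8.46, 8.39 and 8.64 in WT MPP. It was the one member with T2F3 MPP wholly below WT MPP, but the gap was narrow and the difference of -0.21 ± 0.13 did not pass (limma adjusted p = 0.188).

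The largest MPP differences belonged to genes that did not pass and that varied widely in GMP. Mrpl33, the counterpart of L33 and chosen after its values were seen, read 9.46, 9.75 and 9.69 in T2F3 MPP, against 8.65, 8.72, 8.91 and 8.66 in WT MPP. Those groups lay well apart, at 0.90 ± 0.36 (SE), with a limma adjusted p of 0.0563. In GMP the same gene read 10.02, 11.07 and 9.63 in T2F3 and 11.13, 9.72, 9.38, 9.43 and 9.33 in WT, so its GMP range within a genotype exceeded the MPP difference. Mrpl41, an addition of the large subunit also picked after its values were seen, was at 0.78 ± 0.35 (adjusted p = 0.0815). Without both WT GMP 1 and T2F3 GMP 2 the adjusted p was 4.81e-06 for Mrpl33 and 1.23e-05 for Mrpl41, as a description that depends on that choice. It was also under 0.05 without WT GMP 1 alone (0.00553 for Mrpl33 and 0.0149 for Mrpl41), without T2F3 GMP 2 alone (0.029 for Mrpl33 and 0.0373 for Mrpl41) and, for Mrpl33, without T2F3 GMP 3 (0.0442).

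**Figure D4:**
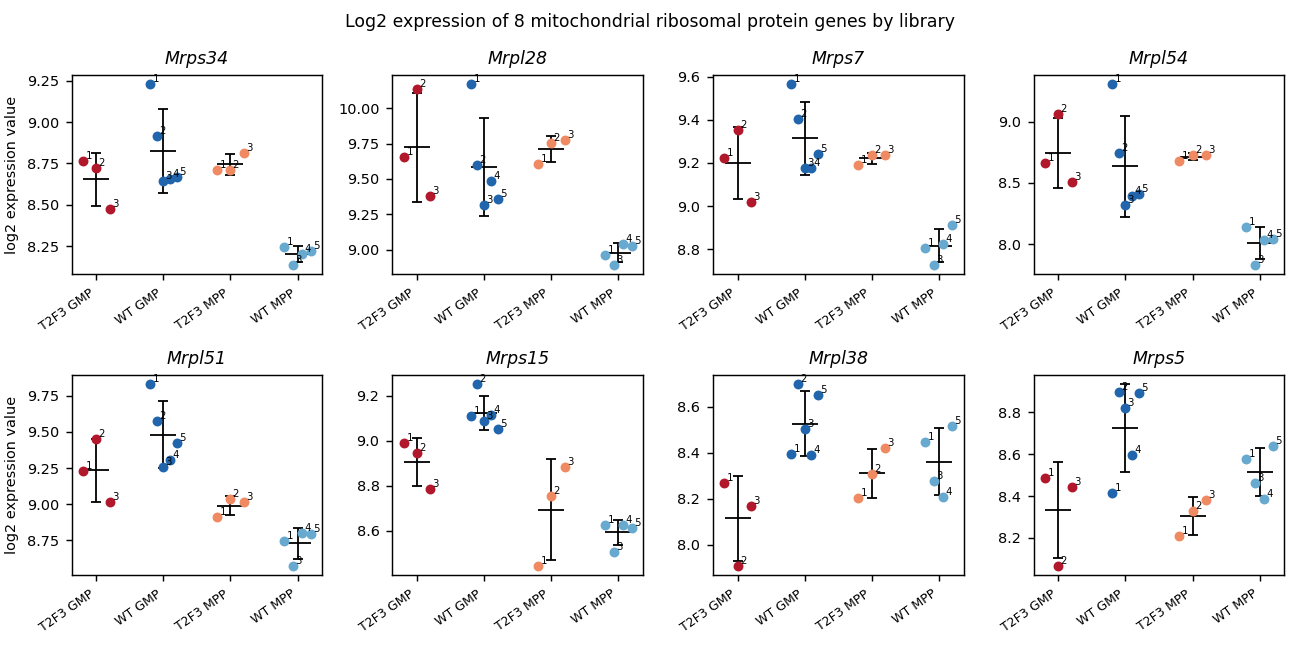
Log2 expression values (y axis, scaled to each gene) of 8 members in each library (points, numbered by library) by group (x axis), with the group mean and SD as bars. For Mrps34, Mrpl28, Mrps7 and Mrpl54 the 4 WT MPP libraries lie below all others, and Mrpl38 averages 8.11 in T2F3 GMP, the lowest of its 4 groups.

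The 3 relatives of bacterial S18 are built into different places, Mrps18c at the S18 site, Mrps18b elsewhere in the small subunit and Mrps18a in the large subunit. Mrps18a was higher in T2F3 MPP, at 8.41, 8.60 and 8.58 against 8.11, 7.92, 8.23 and 8.03 in WT MPP, with a difference of 0.46 ± 0.15 (SE, limma adjusted p = 0.0258). That call was lost without T2F3 MPP 2 (adjusted p = 0.0884), T2F3 MPP 3 (0.0834), WT MPP 3 (0.0679) or WT MPP 5 (0.0539), with no filter (0.0796) and with the replicate number as a block (0.0871), and its gene overlaps Rsph9. Mrps18c read 8.36, 8.44 and 8.36 in T2F3 MPP, against 7.76, 7.85, 7.85 and 7.69 in WT MPP. Its groups lay clearly apart, but its difference of 0.60 ± 0.30 did not pass (adjusted p = 0.111) and passed without WT GMP 1 (0.0208). Mrps18b read 8.73, 8.64 and 8.72 in T2F3 MPP and 8.55, 8.42, 8.54 and 8.76 in WT MPP, which overlapped, at 0.13 ± 0.11 (adjusted p = 0.34).

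Since many members were higher together, their promoters were compared. RefSeq promoter windows of the GRCm38.p6 assembly, from 250 bases before to 50 bases after the annotated start, were found for 69 of the 78 members. The letters CCGGAAG on either strand, the core bound by ETS factors such as GABP, a known regulator of nuclear genes for mitochondria, were in 26 of 69 members (37.7%), against 20.8% of 9704 tested genes with an entry and 8.86% of all 32851 windows. The letters AAGATGG, read by YY1, were in 18.8% of members, against 8.44% of tested genes and 6.34% of all windows. The letters GCGCATG, read by NRF1, were in 11.6% of members, against 8.14% of tested genes and 3.91% of all windows. The E-box CACGTG, read by MYC and MAX, was in 7.25% of members, against 11.8% of tested genes and 7.15% of all windows. The GC box GGGCGG was in 49.3% of members, against 67.6% of tested genes and 35.7% of all windows. The letters CCAAT were in 39.1% of members, 43.4% of tested genes and 37.4% of all windows, and TATAAA was in 7.25% of members, 8.75% of tested genes and 13.6% of all windows. Every motif was searched on both strands, and matches of different motifs were counted separately even where they share bases. Among members with the ETS letters 14 of 26 were higher in T2F3 MPP, with a median difference of 0.47, and among those without them 15 of 43 were, with a median of 0.35. With the YY1 letters 6 of 13 were higher (median 0.40), and without them 23 of 56 (median 0.41). With the NRF1 letters 2 of 8 were higher (median 0.36), and without them 27 of 61 (median 0.40). These shares are a description of letters in a window and were not tested.

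Of the members higher in both T2F3 MPP and WT GMP against WT MPP, 5 held the ETS letters in the 60 bases before the start, and they are printed to show where the letters lie. They are followed by Mrpl28 and Mrps7, which had the smallest MPP p among members with an entry and held none of the ETS, YY1 or NRF1 letters there. Mrps7 and Mrps18a held the YY1 letters after the start, within the window searched but past the printed bases. Sequences are from RefSeq for GRCm38.p6, 5′ to 3′ on the strand of the gene, ending at the base before the start, with the ETS letters in capitals. The positions are chr11:94653731-94653790 (plus) for Mrpl27, chr8:71464866-71464925 (plus) for Mrpl34 and chr19:45006443-45006502 (minus) for Mrpl43. They are chr11:115403692-115403751 (plus) for Mrpl58, chr17:46110944-46111003 (plus) for Mrps18a, chr17:26123443-26123502 (plus) for Mrpl28 and chr11:115604080-115604139 (plus) for Mrps7.
Mrpl27: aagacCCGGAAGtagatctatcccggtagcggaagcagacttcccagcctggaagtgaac
Mrpl34: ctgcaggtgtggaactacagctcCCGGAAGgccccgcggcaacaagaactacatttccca
Mrpl43: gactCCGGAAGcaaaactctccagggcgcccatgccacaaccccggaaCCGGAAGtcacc
Mrpl58: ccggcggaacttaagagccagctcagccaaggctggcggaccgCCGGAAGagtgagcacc
Mrps18a: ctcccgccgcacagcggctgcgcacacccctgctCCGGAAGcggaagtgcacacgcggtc
Mrpl28: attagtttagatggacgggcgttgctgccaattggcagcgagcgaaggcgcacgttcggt
Mrps7: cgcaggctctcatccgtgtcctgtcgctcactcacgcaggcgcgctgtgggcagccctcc
Mrpl43 alone held the letters at 2 places wholly within these 60 bases. In Mrpl58 a second match began 2 bases before the start and ran past it, so it is not in capitals. The differences in MPP of the 5 genes with the letters were 0.54 for Mrpl27, 0.34 for Mrpl34, 0.39 for Mrpl43, 0.55 for Mrpl58 and 0.46 for Mrps18a.

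The same genotype comparison in GMP gave a different picture. Of the 78 members, 0 were higher and 2 were lower in T2F3 GMP by limma at an adjusted p under 0.05, where 9.25% of all genes tested were higher and 6.04% were lower. At an unadjusted limma p under 0.05, 0 members were higher and 8 were lower. The median difference was -0.01 on the log2 scale, and 35 of 78 members were above 0, as were 47% of all genes. In 5 members, Mrpl37, Mrpl38, Mrps15, Mrps18b and Mrps27, every T2F3 GMP library lay below every WT GMP library, close to the 7.49% of all genes that did, and in 0 members every T2F3 GMP library lay above (9.52% of all genes). The sign of the median follows single libraries, since it was -0.14 without T2F3 GMP 2, 0.13 without T2F3 GMP 3 and 0.10 without WT GMP 1. Without WT GMP 1, 3 members were called higher and 4 lower, and without T2F3 GMP 2 none was called in either direction. The lower count was 1 without WT MPP 1, WT MPP 3, WT GMP 2 or WT GMP 5, and 3 without WT GMP 4. Without both WT GMP 1 and T2F3 GMP 2, 0 members were higher and 2 lower, with a median of -0.04.

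Mrpl38 read 8.27, 7.91 and 8.17 in T2F3 GMP, against 8.39, 8.70, 8.50, 8.39 and 8.65 in WT GMP. All T2F3 GMP libraries lay below all WT GMP libraries, with T2F3 GMP 2 lowest. The difference was -0.41 ± 0.11 (SE), or 0.752-fold, with a limma adjusted p of 0.015, and -0.31 without T2F3 GMP 2, where it no longer passed (adjusted p = 0.106). Mrps5 read 8.49, 8.07 and 8.44 in T2F3 GMP, against 8.42, 8.90, 8.82, 8.60 and 8.89 in WT GMP. The groups overlapped through WT GMP 1, and the difference was -0.39 ± 0.12 (SE, limma adjusted p = 0.0385). The Mrps5 call was lost without WT MPP 1 (adjusted p = 0.0502), WT MPP 3 (0.05), T2F3 GMP 2 (0.236), WT GMP 2 (0.0873), WT GMP 3 (0.0816) or WT GMP 5 (0.09). It was also lost with no filter (0.106), in the GMP groups alone (0.123) and with the replicate number as a block (0.0802).

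Mrps18b read 8.69, 8.73 and 8.62 in T2F3 GMP, against 9.20, 9.10, 8.76, 8.78 and 9.02 in WT GMP. Its groups lay apart without passing, at -0.29 ± 0.10 (SE, limma adjusted p = 0.0676). Mrpl28 and Mrpl54, which were higher in T2F3 MPP, stood at 0.14 ± 0.17 and 0.11 ± 0.18 in GMP, with adjusted p of 0.64 and 0.727. Without T2F3 GMP 2 these differences were -0.07 for Mrpl28 and -0.05 for Mrpl54. The T2F3 GMP range of Mrpl28, 9.38 to 10.14, lay inside its WT GMP range of 9.32 to 10.17.

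The difference of the genotype effects, GMP minus MPP, compared the T2F3 minus WT difference between the populations. It was below 0 in all 78 members, with a median of -0.44 and a range from -0.71 to -0.11, while 49% of all genes tested were above 0. The sign was not particular to this family. It was above 0 in 0 of 71 respiratory chain and ATP synthase genes (median -0.52) and in 0 of 74 cytosolic ribosomal protein genes (median -0.45). By limma at an adjusted p under 0.05, 0 members were higher and 1 was lower, where 1.38% of all genes tested were higher and 0.882% were lower, and at an unadjusted p under 0.05, 0 were higher and 31 were lower. On simulated data the fit called only 8% of changes of 0.5 in this comparison, so few calls do not show that the effects were alike. The simulated noise was independent between genes and equal in all groups, and few genes were altered. The real spread was wider in GMP and shared by genes of a library, so the 8% is only a rough guide. The members share the same 15 libraries and are not independent, so their common sign is 1 pattern and not 78. The count of lower members was 2 without T2F3 MPP 1 and without WT GMP 1, and 41 without both WT GMP 1 and T2F3 GMP 2, where 6.63% of all genes were lower.

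The called member was Mrps34, at -0.71 ± 0.17 (SE, limma adjusted p = 0.0433). It read 8.77, 8.72 and 8.47 in T2F3 GMP, against 9.23, 8.91, 8.64, 8.66 and 8.67 in WT GMP, where the groups overlapped at a difference of -0.17 ± 0.12 (adjusted p = 0.361). The effect in MPP was 0.54, given above. Its adjusted p for the difference of effects lay between 0.0578 and 0.136 when T2F3 MPP 2 or 3, T2F3 GMP 2 or 3, WT GMP 2 or any WT MPP library was left out, with values from -0.75 to -0.62. Next came Mrps7 at -0.52 ± 0.14 (adjusted p = 0.0662). Without both WT GMP 1 and T2F3 GMP 2 its adjusted p was 0.0133, again as a description.

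The step between the populations was then compared within each genotype. In WT, 59 of 78 members were higher in GMP than in MPP and 0 were lower by limma at an adjusted p under 0.05, where 25.4% of all genes tested were higher and 23.2% were lower. At an unadjusted p under 0.05, 64 members were higher and 0 were lower. The median difference was 0.50, with quartiles of 0.35 and 0.61, against 0.03 over all genes tested, and 77 of 78 members were above 0, as were 53.5% of all genes. In 61 members every WT GMP library lay above every WT MPP library (22.6% of all genes), and in 0 members every one lay below (20.4% of all genes). The WT step and the MPP genotype comparison both use the 4 WT MPP libraries, so a low value there appears in both. Leaving out 1 library gave 46 to 63 members higher, and without WT GMP 1 it was 57 with a median of 0.37. Without both WT GMP 1 and T2F3 GMP 2, 66 members were higher and 1 was lower.

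Members higher in WT GMP were found in all 4 role lists. Of the large subunit, 22 of 30 proteins with a bacterial counterpart and 16 of 21 mitochondrial additions were higher in WT GMP. Of the small subunit, 12 of 16 with a counterpart and 8 of 10 additions were higher. Mrpl33 had the largest difference, at 1.06 ± 0.32 (SE, limma adjusted p = 0.011), and was the only member over 2-fold. Without WT GMP 1 its difference was 0.73, under 2-fold, and with no filter its adjusted p was 0.0591. Mrpl51, an addition of the large subunit, had the smallest p. Mrpl51 read 9.83, 9.57, 9.26, 9.30 and 9.43 in WT GMP, against 8.75, 8.58, 8.80 and 8.80 in WT MPP. The lowest WT GMP library was well above the highest WT MPP library, with a difference of 0.75 ± 0.11 (SE), or 1.68-fold, and an adjusted p of 4.3e-05.

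Mrps15, the counterpart of S15 in the body of the small subunit, read 9.11, 9.25, 9.09, 9.11 and 9.05 in WT GMP, against 8.63, 8.51, 8.62 and 8.61 in WT MPP. The groups did not overlap and WT GMP 1 lay within the other WT GMP libraries, and the difference was 0.53 ± 0.09 (SE, limma adjusted p = 8.49e-05). Mrps12, the counterpart of S12 at the decoding centre, read 8.64, 8.55, 8.28, 8.35 and 8.24 in WT GMP, against 7.89, 7.80, 7.88 and 7.98 in WT MPP. The groups were again apart, at 0.52 ± 0.09 (adjusted p = 0.000235). Without both WT GMP 1 and T2F3 GMP 2 the differences were 0.66 for Mrpl51, 0.53 for Mrps15, 0.47 for Mrps12 and 0.52 for Mrps34, and all 4 passed. Mrps34 differed by 0.62 ± 0.11 (adjusted p = 0.000196), Mrps18b by 0.41 ± 0.10 (0.00219), Mrps18a by 0.55 ± 0.13 (0.00294) and Mrps18c by 0.74 ± 0.26 (0.0278). Of these, Mrps18c lost its call without WT MPP 1 (adjusted p = 0.0582) or WT MPP 5 (0.0642).

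A few members did not follow the WT step. Mrpl52, an addition of the large subunit chosen after its values were seen, was the one member below 0, at -0.10 ± 0.20 (SE, limma adjusted p = 0.713). It read 8.79, 7.96, 7.51, 7.63 and 7.76 in WT GMP and 8.00, 7.97, 8.06 and 8.08 in WT MPP, where WT GMP 1 alone lay above WT MPP. Without WT GMP 3 the Mrpl52 value was 0.00596. Mrpl9, the counterpart of L9 and also picked after its values were seen, read 8.98, 8.93, 8.79, 8.71 and 8.87 in WT GMP and 8.75, 8.83, 8.84 and 8.83 in WT MPP, at 0.05 ± 0.07 (adjusted p = 0.593). Mrps2, Mrps5 and Mrpl38 were at 0.11, 0.21 and 0.17 and did not pass, although Mrps5 did without WT GMP 1 (0.29, adjusted p = 0.0246).

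In T2F3 the same step gave 0 members higher and 0 lower in GMP by limma, where 10.5% of all genes tested were higher and 11.7% were lower. At an unadjusted limma p under 0.05 the counts were 0 and 0 as well. The median difference was 0.04 and 50 of 78 members were above 0, as were 51.2% of all genes. Its sign followed single libraries, with a median of -0.10 and 17 members above 0 without T2F3 GMP 2, 0.17 and 65 without T2F3 GMP 3, and -0.0045 and 39 without T2F3 MPP 1. In 0 members did the T2F3 GMP libraries lie wholly above or wholly below the T2F3 MPP libraries, where 16.1% of all genes lay above and 17.4% below. Mrps15 came nearest, at 8.99, 8.94 and 8.79 in T2F3 GMP and 8.44, 8.75 and 8.88 in T2F3 MPP, which overlapped at 0.21 ± 0.10 (SE, adjusted p = 0.172). Mrps6, the counterpart of S6 and chosen after its values were seen, had the lowest value, at -0.38 ± 0.19 (adjusted p = 0.186). The T2F3 GMP libraries differed widely among themselves, and without both WT GMP 1 and T2F3 GMP 2 the counts were 0 higher and 6 lower.

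The rest of the mitochondrial translation machinery was read for the same libraries, against the shares of all genes given above (20.7% higher and 19.6% lower in MPP, 9.25% higher and 6.04% lower in GMP). Of 5 ribosomal proteins with other names, 1 was higher and 0 were lower in T2F3 MPP by limma, with a median of 0.35 and 4 above 0. Aurkaip1 was higher by 0.59 ± 0.15 (SE, limma adjusted p = 0.00785). Chchd1 was at 0.85, Gadd45gip1 at 0.35, Ptcd3 at 0.26 and Dap3, a GTP-binding protein of the small subunit, at -0.08, and none of these 4 passed. Of 13 translation factors, 1 was higher and 1 lower in T2F3 MPP, with a median of 0.00013. Taco1, an activator of the translation of the cytochrome oxidase subunit COX1, was higher by 0.37 ± 0.11 (adjusted p = 0.0132), and Gfm2, which helps to recycle the ribosome, was lower, at -0.36 ± 0.09 (adjusted p = 0.00586). Of 21 assembly factors, 4 were higher and 1 lower with a median of 0.20, and those higher included the pseudouridine synthase Rpusd4 (0.27) and the membrane protein Mpv17l2 (0.41).

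Of 17 mitochondrial aminoacyl-tRNA synthetases, which charge the tRNAs used by this ribosome, 0 were higher and 5 lower in T2F3 MPP, and 0 were higher and 4 lower in T2F3 GMP, by limma. At an unadjusted p under 0.05 these were 0 and 6 in both populations. These lists are small, and their counts are a description. Of 17 genes for copying, transcribing and processing the mitochondrial genome, 6 were higher and 1 lower in T2F3 MPP, with a median of 0.14. In GMP, Tsfm, an elongation factor, was lower in T2F3 at -0.30 ± 0.09 (SE, adjusted p = 0.0359), as was Mrm3, a methyltransferase of the ribosomal RNA, at -0.41 ± 0.11 (adjusted p = 0.0168).

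The genes of the respiratory chain, which this ribosome helps to make, and of the cytosolic ribosome were read beside it. Of 71 respiratory chain and ATP synthase genes, 48 were higher in T2F3 MPP (median 0.61) and 64 were higher in WT GMP than in WT MPP (median 0.70). Of 74 genes of the cytosolic ribosome, 59 were higher in T2F3 MPP (median 0.72) and 29 were higher in WT GMP than in WT MPP (median 0.49). Among all genes tested, 20.7% were higher in T2F3 MPP and 25.4% in the WT step. In T2F3 GMP, 0 were higher and 1 was lower in each family, where 9.25% of all genes were higher and 6.04% lower. The GMP medians were 0.07 for the respiratory chain list and 0.27 for the cytosolic ribosome, with 71 of its 74 genes above 0. In the T2F3 step 0 genes of either family were called, with medians of 0.15 for the respiratory chain list and 0.03 for the cytosolic ribosome. Among all genes tested, 10.5% were higher and 11.7% lower in that step. No test compared these families with the mitochondrial ribosomal proteins.

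Gene length moved with the result in MPP. Among all other tested genes, 31.1% of those spanning under 3 kb were higher in T2F3 MPP (median 0.21), 29.1% of those of 3 to 10 kb (median 0.11) and 17.3% of those of 10 kb and over (median -0.07). Among the members these were 5 of 13 (median 0.47), 20 of 42 (median 0.42) and 7 of 23 (median 0.36). In the WT step, 41.4%, 33.3% and 21.4% of the other genes of these lengths were higher in GMP (medians 0.25, 0.13 and -0.0054), and 11 of 13, 35 of 42 and 13 of 23 members were. The part of gene length in the results was not tested. In the annotation of GRCm38.p6, 25 members overlap another gene on the genome, 20 of them one that codes for protein.

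Markers of several other cell types moved with genotype as well. Among all genes tested, 20.7% were higher and 19.6% lower in T2F3 MPP, and 9.25% were higher and 6.04% lower in T2F3 GMP. Of 5 tested erythroid markers, 5 were lower in T2F3 MPP, where their summed level was 6.71 to 6.84 on the log2 scale, against 8.86 to 9.26 in WT MPP. Of 7 dendritic cell markers 5 were higher, with a summed level of 14.68 to 15.49 in T2F3 MPP, against 12.54 to 13.21 in WT MPP. Of 5 monocyte and macrophage markers 4 were higher, at 12.53 to 13.30 in T2F3 MPP and 11.80 to 12.23 in WT MPP. Of 5 tested B lymphoid markers 4 were lower, at 8.25 to 8.53 in T2F3 MPP and 8.83 to 9.29 in WT MPP. Of 5 basophil and mast cell markers 4 were lower, at 9.35 to 9.53 in T2F3 MPP and 9.82 to 10.28 in WT MPP. In GMP, T2F3 had 6 of 7 dendritic and 4 of 5 monocyte markers higher. Lower there were 5 of 5 erythroid, 5 of 5 basophil and mast cell and 3 of 5 B lymphoid markers. Of 6 late neutrophil markers, 0 were called between the genotypes in MPP or in GMP. Of 4 megakaryocyte markers, 1 was higher and 1 lower in T2F3 MPP, and 0 were higher and 2 lower in T2F3 GMP. Of 4 tested T and NK markers, 0 were higher and 2 lower in T2F3 MPP, and 0 were called in GMP. In the WT step, 25.4% of all genes tested were higher in GMP and 23.2% lower. There, 7 of 7 dendritic, 4 of 5 erythroid and 4 of 5 B lymphoid markers were lower in GMP. Higher were 5 of 5 basophil and mast cell, 5 of 6 late neutrophil and 4 of 5 monocyte markers. Of 4 megakaryocyte markers 2 were higher and 0 lower, and of 4 tested T and NK markers 1 was higher and 3 lower. No marker of these lists was listed at 0 in every library, and the part of such cells in the values of the ribosomal protein genes was not tested.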

How the data were processed

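RNA-seq libraries of 4 groups were compared: 3 T2F3 GMP, 5 WT GMP, 3 T2F3 MPP and 4 WT MPP. What the authors deposited is a single table, in log2 units, of 24424 genes by Entrez ID, and its name marks regularized log values. That transformation shrinks differences of genes with few reads, and the table holds no counts, so depth and counting error are unknown. Per the labels' protocols the libraries were made with a stranded mRNA kit, while DESeq2, HOMER, Bowtie, STAR and the mm9 build are listed in the submitters' processing notes without versions or roles. Symbols came from the NCBI gene table of GRCm38.p6, which matched 24345 IDs. Of the 56 samples in the series, 41 were not analysed here.

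The limma model took the 12133 genes whose mean reached 4 or more (version 3.58.1, R 4.3.3; a mean per group, eBayes with trend and robust). All tests were two-sided, and p-values were adjusted over the tested genes by Benjamini-Hochberg, with a threshold of 0.05. Errors are limma's SE for differences and SD for levels. The fit was tested on simulated data. Summaries and plots used Matplotlib 3.10.9, NumPy 2.4.6, pandas 2.3.3 and Python 3.11.15. The members and lists were chosen with earlier results of these data known. Members named without remark had the smallest p, up to 4 per comparison and direction, or the smallest and largest MPP p of each of 4 role lists, or belong to the Mrps18 genes. From other lists up to 2 genes per genotype comparison were named by p, and Dap3, Mrps36, the genes of overlaps and exceptions were named after their values were seen. Alternatives tried were a minimum mean of 6, no filter, centring, quantile normalization, no trend or robust step, the compared groups alone, WT GMP 1 and T2F3 GMP 2 left out, each library left out and replicate blocks.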

Additional observations from a re-analysis of the deposited data

Results flagged for a closer look

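In WT MPP, library 3 lay far from the other libraries of its group in the family level of the mitochondrial ribosomal proteins, at -0.42. The same library was far from the others for Mrps15, at 8.51. In WT GMP, library 1 was far from the others for Mrpl24, at 9.60, and for Mrps18c, at 9.58. In all, 30 groups were examined for the 14 named genes and the family level, and 4 were flagged. Chance flags about 1 in 20 of such groups. The genes share libraries, so the flags are not independent and their number was not tested against that share. The genotype effect on Mrps34 differed between GMP and MPP by limma's test of the difference of effects, at -0.71 (adjusted p = 0.0433). It was the 1 member called lower (1.28% of members), where 0.882% of all genes tested were lower. The call was lost with no filter (adjusted p = 0.0955), with a minimum mean of 6 (0.0531) and without several of the single libraries, as given above.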

How the results depend on the processing

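In T2F3 against WT MPP, 32 members were higher, which became 7 with no filter, 21 with each library centred on its median, 65 with the MPP groups alone, 65 without WT GMP 1 and T2F3 GMP 2, and 4 with the replicate number as a block. Without 1 library it was 5 to 58 higher and 0 to 0 lower. Centring also moved all called genes to 2032 higher and 3022 lower, from 2506 and 2383, and in the WT step to 2457 and 3367, from 3081 and 2818. In GMP, 2 members were lower, which became 1 with no filter, 1 with the GMP groups alone and 1 with the replicate block, and without 1 library 0 to 4 were lower and 0 to 3 higher. For the difference of effects, 1 member was lower, which became 0 with no filter, 0 with a minimum mean of 6, 0 without trend and robust, 41 without WT GMP 1 and T2F3 GMP 2, and 0 with genotype and number as 1 animal, where WT GMP 2 has no partner. Without 1 library 0 to 2 were lower and 0 to 0 higher. In the T2F3 step, 0 members were lower and 6 without WT GMP 1 and T2F3 GMP 2, and without 1 library 0 to 0 were called in either direction. In the WT step, 59 members were higher, 39 with no filter and 46 to 63 without 1 library, and 0 were lower, 1 without WT GMP 1 and T2F3 GMP 2 and 0 to 0 without 1 library. The causes were not tested, and with no filter both the number of genes tested and limma's SEs differed.

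Of the single-gene values of the named genes, 1057 kept direction and call, 35 lost the call, 27 gained it and 5 changed sign. The last were Mrpl28 in GMP (-0.072) and Mrpl54 in GMP (-0.048) without T2F3 GMP 2, Mrpl38 in MPP without T2F3 MPP 1 (0.0016) or WT MPP 5 (0.00029), and Mrpl52 in the WT step without WT GMP 3 (0.00596). Without 1 library these values ranged from -0.07 to 0.31 for Mrpl28, -0.05 to 0.28 for Mrpl54, -0.11 to 0.0016 for Mrpl38 and -0.31 to 0.00596 for Mrpl52. Equal replicate numbers correlated in their deviations by 0.055 to 0.464 within a genotype, where 4 of 7 matched their own number best. Across genotypes in 1 population these correlations ran from -0.326 to 0.517. The labels do not say whether equal numbers mark 1 animal, and these values do not settle it. The main fit therefore treated the libraries as unpaired. With genotype and number as 1 animal, 56 members were higher and 0 lower in the WT step. The depth is unknown, so it is not known which values counting error limits.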
